A study of Cucurbita pepo with 12 samples.

Results

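Of 27868 zucchini genes (Cucurbita pepo, cultivar Costata Romanesco), 172 stood higher in the pollen of plants given bulk CuO and of plants given CuSO4 than in the pollen of plants given CuO nanoparticles (CuO NPs) or no added copper. A gene was taken when the lower of its bulk CuO and CuSO4 pollen levels, plus 1, was at least 3 times the higher of its CuO NPs and control pollen levels, plus 1. The 4 pollen values therefore chose the genes and are given below as a description. The rule uses no leaf or root value, but it and its pairing of materials were chosen with earlier results of these data known.

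Plants were germinated for 10 days, moved to 500 g of soil, 1 per pot, and grown for 60 days until they flowered. Bulk CuO (copper oxide of ordinary particle size) and CuO NPs (copper oxide nanoparticles) were each mixed in at 100 mg/kg of soil and copper sulfate pentahydrate (CuSO4) at 320 mg/kg, so that each supplied about 80 mg/kg of copper. Control plants grew in the same soil without added copper. Messenger RNA of pollen, leaf and root was sequenced, giving 12 libraries, 1 per organ and treatment, and levels were deposited as FPKM, a fragment count scaled for transcript length and library size, which can be compared between genes. Differences between treatments within pollen have no replicate check.

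Copper is an essential metal of photosynthesis, respiration and antioxidant enzymes, and it is toxic in excess. Copper sulfate dissolves readily, while copper oxide particles release copper ions slowly, at a rate that depends on particle size. Pollen is the male gametophyte of flowering plants. It transcribes a narrower set of genes than leaf or root, and many of its abundant transcripts are hardly found in other organs. The deposited table gives gene IDs without names, and none of them occurs in the gene table used here, so no function can be given for any of the 172 genes and only a few IDs are printed.

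In bulk CuO pollen the levels of the 172 genes ran from 2.03 to 577 FPKM, with a median of 7.23 FPKM. In CuSO4 pollen they ran from 2.03 to 648 FPKM, with a median of 7.42 FPKM. Their median was 0.300 FPKM under CuO NPs and 0.214 FPKM in the control. Their levels summed to 4087 and 3947 FPKM in bulk CuO and CuSO4 pollen, against 418 FPKM under CuO NPs and 366 FPKM in the control. That sum was 0.600% and 0.582% of all FPKM in the bulk CuO and CuSO4 pollen libraries, against 0.0627% and 0.0523% in the CuO NPs and control libraries. Over the 11185 genes with a pollen mean of at least 1 FPKM, which include all 172, the medians were 5.20 and 5.32 FPKM in bulk CuO and CuSO4 pollen, against 5.17 and 4.53 FPKM in CuO NPs and control pollen. Of the 172 genes, 65 (37.8%) reached 10 FPKM in both raised libraries, against 33.9% of those 11185 genes, and 7 reached 100 FPKM in both. In the CuO NPs and control libraries 126 stood under 1 FPKM in both, and 54 of these were listed at 0 in both. A value of 0 in an FPKM table can be a failed estimate; ratios and log2 differences here are of FPKM + 1, so for genes listed at 0 they depend on the added 1. The ratio that the rule uses had a median of 4.52 and was at least 5 for 72 genes, at least 10 for 25 genes and at least 20 for 6 genes. The mirror of the rule, with both materials lower than CuO NPs and control, held for 5 genes. The rule gave 0.617% of all genes and its mirror 0.0179%. How many genes met the rule depended on its settings: 343 did without the CuO NPs library, and 979 did with 0.1 in place of 1 added to each level.

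**Figure D1:**
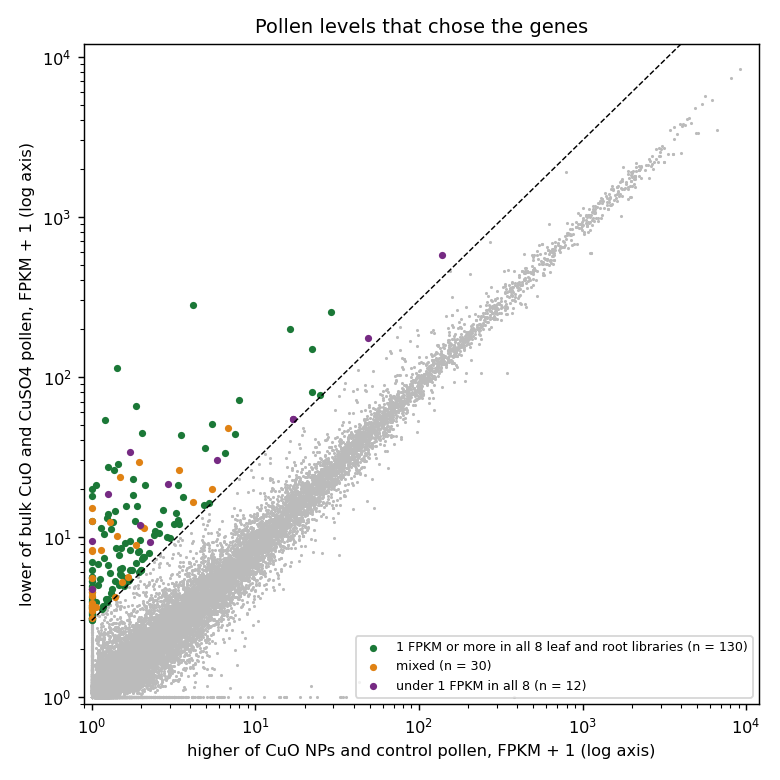
Each point is a gene, placed by the higher of its CuO NPs and control pollen levels (x, FPKM + 1, log axis) and the lower of its bulk CuO and CuSO4 pollen levels (y, FPKM + 1, log axis); the dashed line is the ratio of 3. Grey points are the other genes, and colours split the 172 genes by their leaf and root levels into 130 at 1 FPKM or more in all 8 leaf and root libraries, 30 mixed and 12 under 1 FPKM in all 8.

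The widest separation was that of Cp4.1LG02g02060, at 132 and 112 FPKM in bulk CuO and CuSO4 pollen, against 0.435 and 0.202 FPKM in CuO NPs and control pollen. In leaf it had 32.3 and 41.1 FPKM in bulk CuO and CuSO4 plants, against 63.2 and 127 FPKM in CuO NPs and control plants. In root it had 19.4 and 45.8 FPKM in bulk CuO and CuSO4 plants, against 26.1 and 21.4 FPKM in CuO NPs and control plants. Its raised pollen levels were close to its control leaf level. In leaf both materials stood below CuO NPs and control, opposite to pollen, and in root the pairs overlapped. Cp4.1LG03g01130 came next, at 282 and 281 FPKM in bulk CuO and CuSO4 pollen, against 3.17 and 2.59 FPKM in CuO NPs and control pollen. Outside pollen it averaged 1.78 ± 0.602 FPKM in leaf and 39.4 ± 25.9 FPKM in root (SD, n = 4 each). The root levels were 67.5 and 7.73 FPKM in bulk CuO and CuSO4 plants, against 30.7 and 51.7 FPKM in CuO NPs and control plants. Its bulk CuO and CuSO4 pollen levels were above all 8 leaf and root libraries, while its CuO NPs and control pollen levels were below all 4 root libraries.

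The highest level among the 172 genes belonged to Cp4.1LG01g00850, with 577 and 648 FPKM in bulk CuO and CuSO4 pollen, against 114 and 138 FPKM in CuO NPs and control pollen. It was listed at 0 in all leaf and root libraries. It differed from most of the others in being abundant in every pollen library. Of genes listed at 0 in both CuO NPs and control pollen, Cp4.1LG19g01980 stood highest, with 23.2 FPKM in bulk CuO pollen and 18.9 FPKM in CuSO4 pollen, followed by Cp4.1LG14g04170 at 20.4 and 17.0 FPKM. Neither was silent outside pollen: the first ranged from 5.12 to 20.9 FPKM over leaf and root, and the second from 16.6 to 138 FPKM.

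At the edge of the rule, Cp4.1LG03g01160 (ratio 3.03) had 3.29 and 2.03 FPKM in bulk CuO and CuSO4 pollen and was listed at 0 in the CuO NPs and control libraries. Cp4.1LG18g03010, also at a ratio of 3.03, stood at 3.20 and 3.47 FPKM, against 0 and 0.387 FPKM. Just outside, Cp4.1LG17g03970 (ratio just under 3) stood at 2.23 and 2.27 FPKM, against 0.079 and 0 FPKM, and Cp4.1LG06g06180 (ratio 2.98) at 6.83 and 7.19 FPKM, against 1.62 and 0.704 FPKM. The genes on either side of the threshold had similar values, so it marks no gap.

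Bulk CuO and CuSO4 pollen levels were close for most of the 172 genes. The rule requires both of these libraries to be high, which favours genes where they are alike. The log2(FPKM + 1) difference, bulk CuO minus CuSO4, had a median of 0.09, against -0.01 over the 11185 genes with a pollen mean of at least 1 FPKM. For 157 genes (91.3%) it lay within 0.5 in either direction. Bulk CuO was the higher for 111 genes and CuSO4 for 61. The same counts were not made over the 11185 genes, so neither is a trait of the 172 genes. The largest differences towards bulk CuO were those of Cp4.1LG03g11600, at 9.05 against 4.24 FPKM under CuSO4, and Cp4.1LG07g05260, at 23.1 against 11.6 FPKM under CuSO4, both 0.94 on the log2 scale. The largest towards CuSO4 were those of Cp4.1LG08g08220, at 16.7 FPKM under bulk CuO against 36.6 FPKM under CuSO4, and Cp4.1LG04g01110, at 2.12 against 5.59 FPKM, log2 differences of -1.09 and -1.08. These 2 genes were the ones past 1 on that scale.

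CuO NPs pollen lay close to control pollen for the same genes. It was higher for 73, lower for 45 and equal, at 0 in both, for 54. Of the 118 genes not at 0 in both it was higher for 61.9%, against 65.7% of the 11117 such genes with a pollen mean of at least 1 FPKM. Over the same 118 genes, the median log2 difference, CuO NPs minus control, was 0.15, against 0.12 over all 11185 genes. The rule takes the higher of these libraries, which limits how far either can rise.

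**Figure D2:**
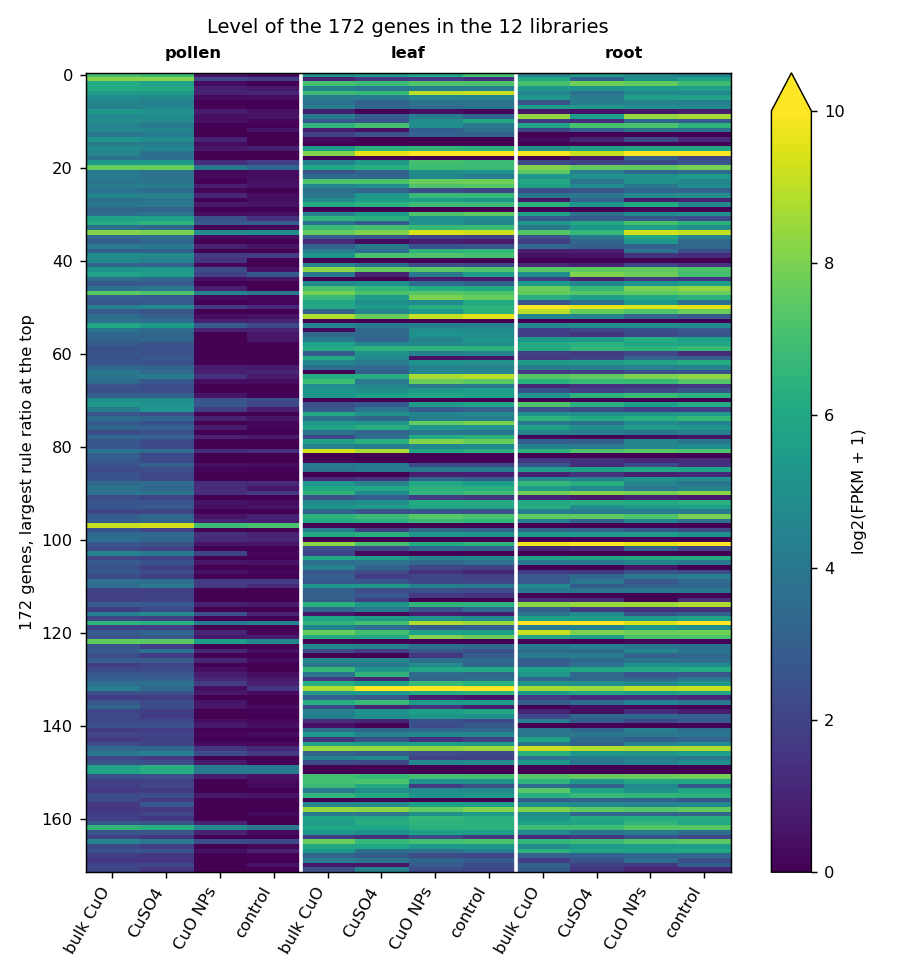
Level of each of the 172 genes, as log2(FPKM + 1), in the 12 libraries; rows are genes ordered by the ratio of the rule and columns are libraries grouped by tissue. The step between the bulk CuO and CuSO4 pollen columns and the CuO NPs and control pollen columns is the rule itself, and the leaf and root columns show that most of the genes are present there under every treatment.

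The spacing of low values gave a depth relative to the control pollen library of 0.986 for bulk CuO, 1.15 for CuSO4 and 1.02 for CuO NPs. Of the raised libraries, CuSO4 was thus the deepest of the 4 and bulk CuO the shallowest. The part of depth in the result was not tested, and absolute read totals were not used here. More genes were found at 1 FPKM or more in the bulk CuO and CuSO4 pollen libraries, 11446 and 11569, against 10967 under CuO NPs and 10309 in the control.

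The tissue label could not be checked against named markers, so gene lists drawn from levels stand in for them. A pollen list held 269 genes at 50 FPKM or more in all 4 pollen libraries and under 1 FPKM in all leaf and root libraries. This list was drawn from the pollen values themselves, so its high level in each pollen library was required and does not check the label. The pollen list made up 39.3% and 38.4% of summed FPKM in bulk CuO and CuSO4 pollen, against 38.1% and 39.8% in CuO NPs and control pollen, and 1 of the 172 genes, Cp4.1LG01g00850, was in it. A leaf list, drawn without the pollen values, held 61 genes at 50 FPKM or more in every leaf library and under 1 FPKM in every root library. Its sum was 157 and 157 FPKM in bulk CuO and CuSO4 pollen, against 155 and 165 FPKM in CuO NPs and control pollen, with 37, 37, 40 and 38 of its 61 genes listed at 0. In leaf libraries the same list summed to between 26890 and 49305 FPKM. In the 4 pollen libraries 8, 8, 10 and 9 of its genes stood at 1 FPKM or more. Its 14 genes under 0.1 FPKM in every root library summed to 124 and 121 FPKM in bulk CuO and CuSO4 pollen. Under CuO NPs and in the control they summed to 109 and 122 FPKM. Only 1 of these 14 stood at 1 FPKM or more in each pollen library, so most of the leaf list sum came from 1 gene per library. A root list of 28 genes, drawn the same way as the leaf list, summed to 53.0 and 45.5 FPKM in bulk CuO and CuSO4 pollen. Under CuO NPs and in the control it summed to 51.7 and 46.0 FPKM, with 23, 24, 25 and 25 genes listed at 0 in the 4 libraries. Only 1 of the 28 genes stood at 1 FPKM or more in each pollen library, so the root list sum was mostly that of 1 gene per library. Neither list held any of the 172 genes. Abundant genes common to leaf and root had higher medians in the raised pollen libraries. The 116 genes at 100 FPKM or more in all 8 leaf and root libraries had medians of 24.7 and 27.4 FPKM in bulk CuO and CuSO4 pollen, against 16.6 and 15.0 FPKM in CuO NPs and control pollen. Their sums were 12202 and 12468 FPKM, against 11369 and 11912 FPKM. Of the 116 genes, 8 (6.90%) were among the 172, against 0.617% of all genes, many of which were too low in pollen to meet the rule. All 172 were among the 11185 genes with a pollen mean of at least 1 FPKM, and a comparison within those genes was not made. The rule itself made those 8 higher in the raised libraries, and medians without them were not computed. These lists hold no markers of anther, petal or other flower tissue, whose part in the result was not tested. In bulk samples more cells of a type and more RNA per cell cannot be told apart.

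**Figure D3:**
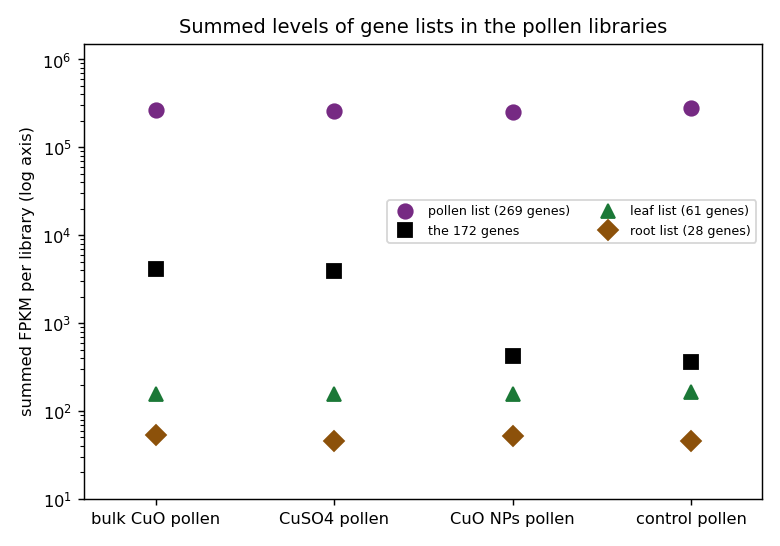
Summed FPKM (log axis) of the pollen list, the 172 genes, the leaf list and the root list in the 4 pollen libraries, 1 point per library. The 172 genes summed to 4087 and 3947 FPKM in bulk CuO and CuSO4 pollen, against 418 and 366 FPKM under CuO NPs and in the control, while the leaf list lay between 155 and 165 FPKM and the root list between 45.5 and 53.0 FPKM in all 4. Most of the leaf list sum, and most of the root list sum, came from 1 gene per library.

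Outside pollen most of the 172 genes were present in every leaf and root library, as were most genes found in pollen. In all 8 leaf and root libraries 130 of them (75.6%) stood at 1 FPKM or more, as did 59.0% of all genes and 78.1% of the genes with a pollen mean of at least 1 FPKM. Their mean over these libraries had a median of 24.5 FPKM, against 13.3 FPKM for the genes with a pollen mean of at least 1 FPKM and 7.09 FPKM for all genes. It reached 100 FPKM for 30 genes (17.4%), against 4.94% of the genes found in pollen at that level and 3.01% of all genes. Another 30 genes were at 1 FPKM or more in some of the 8 libraries and not in others. The remaining 12 were under 1 FPKM in all 8, a share of 6.98% against 14.3% of all genes, and 8 of these were listed at 0 throughout.

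Most of the 130 widely transcribed genes stood lower in raised pollen than in leaf and root. Their mean over bulk CuO and CuSO4 pollen was, at the median, 20.8% of their mean over leaf and root, against 0.456% for their mean over CuO NPs and control pollen. The ratio ran from 0.90% to 1366%, and it was under 10% for 33 genes and over 100% for 16. Of all 172 genes, 75 stood in raised pollen below the lowest of the 8 leaf and root libraries, 71 within their range and 26 above the highest. The same shares were not computed for other genes. Over the 11185 genes with a pollen mean of at least 1 FPKM, medians were 5.20 and 5.32 FPKM in bulk CuO and CuSO4 pollen. The leaf and root mean of those genes had a median of 13.3 FPKM, so their median too was lower in pollen.

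The genes with the highest leaf and root means were Cp4.1LG07g05260 and Cp4.1LG07g05180. Cp4.1LG07g05260 stood at 23.1 and 11.6 FPKM in bulk CuO and CuSO4 pollen and was listed at 0 in the other pollen libraries. Its leaf levels were 267 and 755 FPKM in bulk CuO and CuSO4 plants, against 1509 and 1140 FPKM in CuO NPs and control plants. Its root levels were 938 and 549 FPKM, against 1653 and 1864 FPKM. Cp4.1LG07g05180 had 18.1 and 9.03 FPKM in bulk CuO and CuSO4 pollen, against 0.315 and 1.88 FPKM in CuO NPs and control pollen. In leaf it had 430 and 1467 FPKM, against 2874 and 1948 FPKM, and in root 406 and 362 FPKM, against 522 and 573 FPKM. Both genes were lower in every bulk CuO and CuSO4 library of leaf and root than in the CuO NPs and control libraries of that organ, the reverse of pollen. Their leaf contrasts, defined below for all genes, had adjusted p-values of 0.113 and 0.108 in limma and did not pass.

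**Figure D4:**
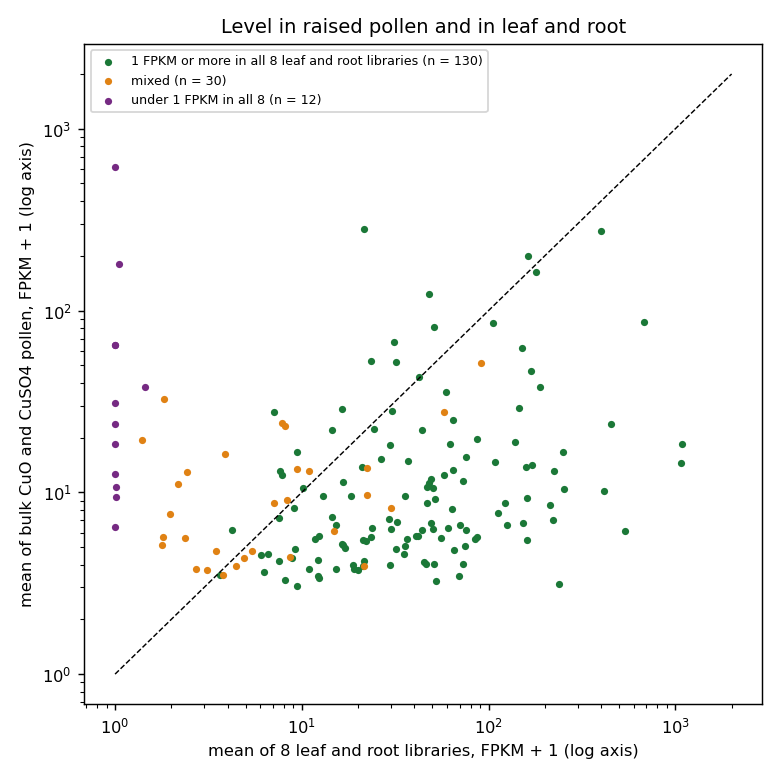
Each point is 1 of the 172 genes, placed by its mean over the 8 leaf and root libraries (x, FPKM + 1, log axis) and its mean over the bulk CuO and CuSO4 pollen libraries (y, FPKM + 1, log axis); the dashed line marks equal levels. Most of the 130 genes at 1 FPKM or more in all 8 libraries lie below the line, and the 12 genes under 1 FPKM in all 8 lie along the left edge.

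The 12 genes under 1 FPKM throughout leaf and root were on the whole the more abundant in pollen. Their median was 28.0 and 24.6 FPKM in bulk CuO and CuSO4 pollen, against 1.59 and 1.05 FPKM in CuO NPs and control pollen. For the 130 widely transcribed genes these medians were 6.44 and 6.39 FPKM, against 0.318 and 0.222 FPKM. Cp4.1LG13g01060 and Cp4.1LG00g07750, picked out after their values were seen, had identical values in all 12 libraries, at 53.1 and 74.0 FPKM in bulk CuO and CuSO4 pollen, against 16.1 and 16.1 FPKM in CuO NPs and control pollen. How the authors divided reads between near-identical genes is not stated, so the level of either is uncertain.

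The 172 genes were spread over all 21 prefixes of the gene IDs, at 0.317% to 0.905% of the genes of a prefix. The prefix LG00 held 6 of them (3.49%), against 5.87% of all genes. They included 2 pairs that follow each other directly in the table.

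Leaf and root were compared with limma on log2(FPKM + 1) over the 4 leaf and 4 root libraries, with treatment as a block. This asks in which vegetative organ the genes are more abundant, and it uses no pollen value. Of the 172 genes, 159 had a mean of at least 1 FPKM in leaf or root and were tested among 22765 genes. With a limma adjusted p under 0.05 and a log2 difference of 1 or more required, 34 (21.4%) were higher in leaf and 33 (20.8%) higher in root, against 15.3% and 17.1% of all genes tested. The other 92 did not pass. The median log2 difference, leaf minus root, was -0.08 for the 159 genes and -0.15 for all genes. All 172 genes had a pollen mean of at least 1 FPKM. Shares among all genes with such a mean were not computed for this comparison or for those that follow.

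Among those higher in leaf, Cp4.1LG17g03050 had the smallest adjusted p. It stood at 33.5, 140, 147 and 131 FPKM in bulk CuO, CuSO4, CuO NPs and control leaf, a mean of 113 ± 53.3 FPKM (SD, n = 4), and at 0.352 to 1.80 FPKM in root (log2 difference 5.69, SE 0.33, limma adjusted p = 0.000191). Cp4.1LG20g09110 had 37.3, 30.0, 38.8 and 46.4 FPKM in the same order in leaf, a mean of 38.1 ± 6.72 FPKM, and 4.79, 2.65, 3.49 and 5.25 FPKM in root, a mean of 4.05 ± 1.19 FPKM (SD, n = 4 each; log2 difference 2.97, SE 0.19, limma adjusted p = 0.00025). The leaf and root libraries of both genes did not overlap. Among those higher in root, Cp4.1LG00g00850 stood at 0.093 FPKM in CuSO4 leaf, was listed at 0 in the other leaf libraries and lay between 5.40 and 7.90 FPKM in root (log2 difference -2.93, SE 0.23, limma adjusted p = 0.000457). Cp4.1LG02g10650 averaged 5.64 ± 2.08 FPKM in leaf (SD, n = 4) and lay between 36.0 and 84.1 FPKM in root (log2 difference -2.95, SE 0.24, limma adjusted p = 0.000506).

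The same pairing of materials was then followed into leaf and root, to see whether genes raised in pollen by bulk CuO and CuSO4 moved with these materials elsewhere. Taken by the same ratio of 3, 9 of the 172 genes (5.23%) were higher under both materials in leaf, against 3.57% of all genes, and 16 (9.30%) were lower, against 2.52% of all genes. Counting only genes with a leaf mean of at least 1 FPKM, the shares were 5.96% higher and 10.6% lower of 151, against 4.78% and 3.37% of all such genes. In root 1 gene was higher and 1 lower, against 0.0754% and 0.115% of all genes. Among genes with a leaf mean of at least 1 FPKM, the bulk CuO and CuSO4 libraries were both lower than the CuO NPs and control libraries for 74 of 151 (49.0%), against 30.8% of all such genes. They were both higher for 43 (28.5%), against 42.5%. In root they were both lower for 59 of 150 genes (39.3%), against 29.8%, and both higher for 25 (16.7%), against 13.3%.

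Each material was also set against the control library of its own organ at 2.3 on the log2(FPKM + 1) scale, the threshold named in the series design text. In leaf under bulk CuO, 18 of 151 genes were lower and 8 higher (11.9% and 5.30%), against 3.53% and 4.56% of all genes. Under CuSO4 15 were lower and 7 higher (9.93% and 4.64%), against 3.34% and 2.86%. Under CuO NPs 0 of the 151 genes passed in either direction, against 0.125% lower and 0.101% higher among all genes. In root, bulk CuO had 4 of 150 genes higher and 0 lower, against 0.834% and 0.362% of all genes, CuSO4 had 2 higher and 3 lower, against 0.157% and 0.343%, and CuO NPs had 0 in either direction, against 0.143% higher and 0.105% lower. These comparisons share the control library of an organ and have no replicate check.

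With the libraries of leaf and root fitted together in limma as 4 groups of 2 (bulk CuO and CuSO4, and CuO NPs and control, in each organ), 28 of the 159 genes were higher and 37 lower in bulk CuO and CuSO4 leaves than in CuO NPs and control leaves at an adjusted p under 0.05. These were 17.6% and 23.3% of the genes tested, against 19.6% and 12.5% of all 22765 genes. Shares among all genes with a pollen mean of at least 1 FPKM, which each of the 172 genes has, were not computed. The median log2 difference was -0.31 for the 159 genes and 0.12 for all genes. Libraries of a pair got different materials, so the error of this fit includes the difference between materials. The 172 genes were more abundant in leaf and root than most, and lower calls were more frequent among abundant genes. Among genes with a leaf and root mean of at least 10 FPKM, a limit set after the data were seen, 29 of 119 (24.4%) were lower, against 17.4% of all such genes, and 18 (15.1%) higher, against 16.3%. The part of level in the difference was not tested further. The counts depended on the libraries of the unraised pair. Without the control leaf library 8 genes were higher and 20 lower (5.00% and 12.5%), against 8.57% and 4.99% of all genes tested. Without the CuO NPs leaf library 14 were higher and 19 lower (8.75% and 11.9%), against 8.74% and 5.56%.

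The largest positive leaf contrast was that of Cp4.1LG02g13490, at 64.2 and 25.2 FPKM in bulk CuO and CuSO4 leaf, against 0.401 and 0.56 FPKM in CuO NPs and control leaf (log2 difference 4.81, SE 0.40, limma adjusted p = 0.000532). In pollen it had 4.55 and 5.69 FPKM, against 0 in both other libraries, so it stood higher under both materials in pollen and leaf. Its root levels were 2.13 and 3.10 FPKM, against 8.16 and 7.44 FPKM. Cp4.1LG03g07960 had 107 and 67.5 FPKM in bulk CuO and CuSO4 leaf, against 2.33 and 4.65 FPKM in CuO NPs and control leaf (log2 difference 4.31, SE 0.60, limma adjusted p = 0.00241). Of the 9 genes that met the ratio of 3 in leaf too, Cp4.1LG10g04400 was the most abundant there, at 668 and 428 FPKM, against 60.9 and 79.5 FPKM, and Cp4.1LG01g21820 followed at 125 and 144 FPKM, against 32.2 and 33.8 FPKM. In pollen Cp4.1LG10g04400 had 13.0 and 11.1 FPKM, against 1.48 and 1.57 FPKM, and Cp4.1LG01g21820 had 2.92 and 3.13 FPKM, against 0 and 0.241 FPKM.

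The largest negative leaf contrasts were those of Cp4.1LG03g13870 and Cp4.1LG20g04090. Cp4.1LG03g13870 stood at 3.49 and 11.0 FPKM in bulk CuO and CuSO4 leaf, against 71.1 and 83.4 FPKM in CuO NPs and control leaf (log2 difference -3.41, SE 0.43, limma adjusted p = 0.00169). In pollen the order was opposite, with 9.38 and 7.91 FPKM, against 0.873 and 0.664 FPKM. Its raised pollen levels lay between those of bulk CuO and CuSO4 leaf. Cp4.1LG20g04090 stood at 4.50 and 5.67 FPKM in bulk CuO and CuSO4 leaf, against 45.2 and 59.2 FPKM in CuO NPs and control leaf (log2 difference -3.12, SE 0.35, limma adjusted p = 0.00114). In pollen it had 36.7 and 32.2 FPKM, against 5.50 and 3.42 FPKM, again in the opposite order to leaf.

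The 37 genes that fell in leaf had a median of 12.2 and 11.0 FPKM in bulk CuO and CuSO4 leaf, against 42.0 and 59.2 FPKM in CuO NPs and control leaf. In pollen their medians were 9.02 and 8.41 FPKM, against 0.597 and 0.387 FPKM. The 28 genes that rose in leaf had medians of 25.7 and 23.8 FPKM in bulk CuO and CuSO4 leaf, against 9.09 and 8.08 FPKM in CuO NPs and control leaf. Their pollen medians were 4.90 and 4.23 FPKM, against 0 in both other libraries. Of the 37, 10 were also called higher in leaf than in root and 9 higher in root, and of the 28 these numbers were 6 and 1. Shares among all genes with the same leaf call were not computed, and both comparisons use the same leaf libraries.

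In root, 0 of the 159 genes passed at a limma adjusted p under 0.05, as did 0 of all 22765 genes. At an unadjusted p under 0.05, 30 of the genes (18.9%) were lower and 7 (4.40%) higher in bulk CuO and CuSO4 roots, against 6.50% and 3.88% of all genes. The median log2 difference was -0.25 for the 159 genes and -0.10 for all genes. Without the CuSO4 root library 5 genes passed as higher and 2 as lower (3.16% and 1.27%), against 1.61% and 0.949% of all genes tested. The largest positive root contrast was that of Cp4.1LG06g05470, at 173 and 19.1 FPKM in bulk CuO and CuSO4 root, against 9.50 and 9.98 FPKM in CuO NPs and control root, where the bulk CuO library stood apart (log2 difference 2.46, SE 0.84, limma adjusted p = 0.432). Cp4.1LG19g00690, the gene that met the ratio of 3 as higher in root, stood at 96.9 and 74.0 FPKM, against 21.2 and 14.2 FPKM (log2 difference 2.22, SE 0.33, limma adjusted p = 0.111). The largest negative ones were Cp4.1LG05g07890, listed at 0 in bulk CuO root and at 0.59 FPKM in CuSO4 root, against 7.31 and 3.50 FPKM in CuO NPs and control root, and Cp4.1LG16g03970, at 0.703 and 0.855 FPKM, against 12.3 and 4.33 FPKM. Their log2 differences were -2.28 (SE 0.36) and -2.25 (SE 0.42), with limma adjusted p-values of 0.134 and 0.191.

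The leaf and root contrasts were compared directly in the same fit. The leaf contrast was above the root contrast for 20 genes (12.6%) and below it for 19 (11.9%) at a limma adjusted p under 0.05, against 12.5% and 5.97% of all genes. Without the control leaf library these counts were 3 and 4 (1.88% and 2.50%), against 2.45% and 1.10% of all genes. Without the CuO NPs leaf library they were 6 and 5 (3.75% and 3.12%), against 3.22% and 1.92%. Leaving out the CuO NPs root library gave 4 and 3 (2.53% and 1.90%), against 2.80% and 1.33%. Leaving out the control root library gave 14 and 8 (8.81% and 5.03%), against 6.49% and 2.85%, and leaving out the bulk CuO leaf library gave 13 and 15 (8.18% and 9.43%), against 8.67% and 4.46%.

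**Figure D5:**
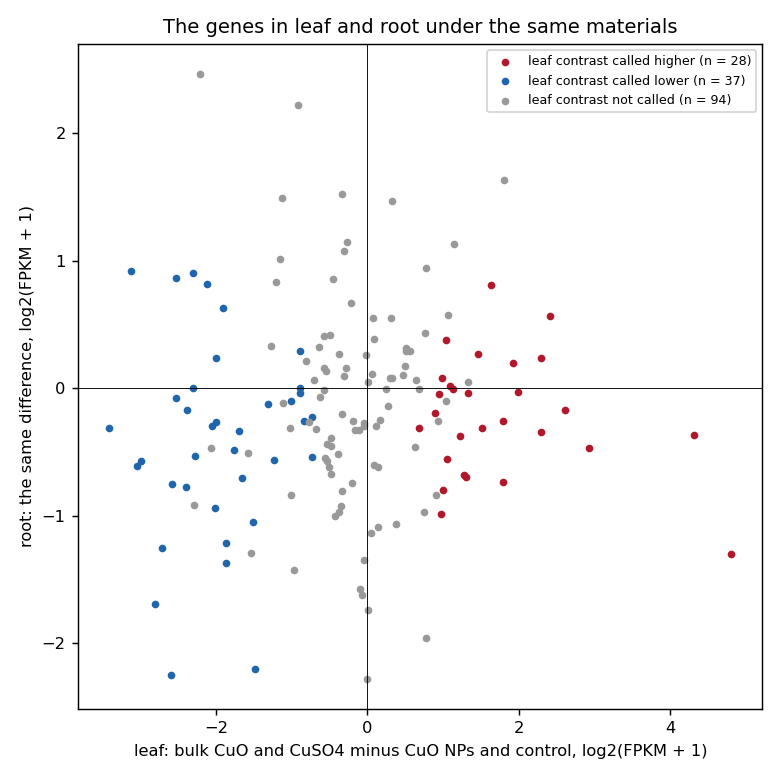
Each point is 1 of the 159 genes tested, placed by its difference between bulk CuO and CuSO4 libraries and CuO NPs and control libraries in leaf (x) and in root (y), as means of log2(FPKM + 1). Red marks the 28 genes higher and blue the 37 genes lower in leaf at a limma adjusted p under 0.05, and grey the 94 not called; no gene was called in root.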

How the data were processed

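Total RNA of pollen, leaf and root was made into strand-specific mRNA libraries and sequenced as single reads of 75 bp, per the labels' protocols. The series design text states 3 biological replicates per treatment, while the labels give 1 library per tissue and treatment; whether RNA was pooled is not stated. Reads were aligned with STAR to a cucurbit reference transcriptome, per the same text, and cutadapt and StringTie are also named in the submitters' processing notes. The authors deposited FPKM per gene and library, with no read counts, so absolute depth is unknown and no counting interval is given.

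The scale was log2(FPKM + 1), on which changes of low genes come out too small. limma 3.58.1 (R 4.3.3; empirical Bayes with trend, Benjamini-Hochberg over all genes) was fitted on the 8 leaf and root libraries for genes whose mean reached 1 FPKM in either organ. No test was made on pollen values. Between organs, treatment was a block, so p-values measure how far the leaf and root difference varies between treatments. For the contrasts, p-values measure the spread within pairs of libraries, which holds the difference between their treatments. Relative pollen depth came from ratios of values between 0.1 and 1.5 FPKM, which pile up at ratios of small whole numbers. Other steps used Python 3.11.15, numpy 2.4.6, pandas 2.3.3 and matplotlib 3.10.9. The fits were tested on simulated data.

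The genes, lists and pairing of materials were chosen with earlier results of these data known. The pollen list and the 116 common genes were added after the data were seen. Because 0 gene IDs occur in the RefSeq gene table of this species, at most 2 genes per direction and comparison are named, by rank: the largest ratio, the highest pollen level, the highest level among genes at 0 in both other pollen libraries, the nearest to the threshold, the highest leaf and root mean, the smallest adjusted p between organs, the largest contrasts in each organ among genes at 5 FPKM or more, the highest genes meeting the rule in leaf or root, and the largest differences between bulk CuO and CuSO4 pollen. Planned lists by gene name (copper, pollen, leaf and stress genes) could not be applied. Alternatives covered the value added before the log, the ratio, scaling, filters, zeros, moderation, the block and single libraries.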

Additional observations from a re-analysis of the deposited data

Results flagged for a closer look

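Among 56 sets of 4 libraries, leaf or root, of the genes named, 4 had a library apart from the rest by the gap to its neighbour over the whole range. Among replicates of a single treatment, chance would flag about 5% of such sets. Libraries of a set differ in treatment here and the genes were named by rank, so that rate does not apply. The ratio was 1 for Cp4.1LG00g00850 in leaf, where CuSO4 stood at 0.093 FPKM and the other libraries at 0, which fixes the ratio at 1. It was 0.936 for Cp4.1LG03g01160 in leaf, with 19.4 FPKM under CuSO4, against 4.48 FPKM under bulk CuO, 4.15 FPKM under CuO NPs and 3.46 FPKM in the control. It was 0.941 for Cp4.1LG06g05470 in root, with 173 FPKM under bulk CuO. It was 0.854 for Cp4.1LG17g03050 in leaf, with 33.5 FPKM under bulk CuO.

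The contrast of bulk CuO and CuSO4 with CuO NPs and control differed between leaf and root, by a test of the difference in limma, for 20 genes with a higher and 19 with a lower leaf contrast. These were 12.6% and 11.9% of the genes tested, against 12.5% and 5.97% of all genes, and without the control leaf library the counts were 3 and 4. Of the genes named for their contrasts, the difference, leaf minus root on the log2 scale, was 6.10 for Cp4.1LG02g13490 (limma adjusted p = 0.00312), 4.67 for Cp4.1LG03g07960 (0.0136), 2.28 for Cp4.1LG05g07890 (0.0251), -3.09 for Cp4.1LG03g13870 (0.0166), -4.67 for Cp4.1LG06g05470 (0.0363), -3.14 for Cp4.1LG19g00690 (0.00793) and -4.04 for Cp4.1LG20g04090 (0.00510).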

How the results depend on the processing

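The number of genes meeting the rule, 172, became 979 with 0.1 and 45 with 5 added before the log, 412 at a ratio of 2, 72 at a ratio of 5, 93 without genes listed at 0 in pollen and 343 without the CuO NPs library. It was 157 after a median shift, with 153 shared, and 149 after quantile normalization, with 149 shared. In leaf, 5 genes were higher and 10 lower by the same rule with 5 added, and 15 and 27 at a ratio of 2. In root, 4 were lower with 0.1 added, and 2 were higher and 7 lower at a ratio of 2. Past 2.3 in leaf, bulk CuO had 3 genes higher and 11 lower and CuSO4 9 lower with 5 added, and bulk CuO had 5 higher after quantile normalization. Past 2.3 in root, bulk CuO had 2 higher and CuSO4 0 higher with 5 added, and 2 were lower under bulk CuO and 1 under CuO NPs with 0.1 added. Shares over all genes were not computed for these leaf and root counts under the changed settings, so the counts alone are no trait of the 172 genes. Leaving out 1 library gave 27 to 39 genes higher in leaf than root and 23 to 38 lower, 8 to 31 higher and 19 to 44 lower in the leaf contrast, 0 to 5 and 0 to 2 in the root contrast, and 3 to 24 and 3 to 25 in their difference; a lone library is then assumed to vary like the others. The shares of all genes passing also changed with the library left out, so these ranges are no trait of the 172 genes. Without the treatment block 33 of the genes were higher in leaf and 39 higher in root, against 34 and 33 with it. The leaf list made up 0.0231%, 0.0232%, 0.0232% and 0.0236% of summed FPKM in bulk CuO, CuSO4, CuO NPs and control pollen, and 0.0610%, 0.0611%, 0.0589% and 0.0618% with a limit of 20 FPKM. The root list made up 0.00778%, 0.00672%, 0.00776% and 0.00657%, and 0.0149%, 0.0135%, 0.0150% and 0.0127% with that limit. With the other organ under 0.1 FPKM the root list made up 0%, 9.00e-06%, 0% and 0%. The leaf list then made up 0.0182%, 0.0179%, 0.0164% and 0.0174%, highest in the raised libraries. Only 1 of its 14 genes stood at 1 FPKM or more in each pollen library. The cause of these changes was not tested. Among genes with a leaf and root mean of at least 10 FPKM, a limit chosen after seeing the data, 18 genes were higher in the leaf contrast. Quantile normalization moved the median of all genes in the leaf contrast to 0.00, against 0.12, and a median shift moved it in the root contrast to 0.01, against -0.10. In their difference it became 0.07 after the median shift and 0.04 after quantile normalization, against 0.24. Of the recomputed counts and shares, 177 stayed within 1.5 times of their value and 48 did not. Of the recomputed values of single genes, 179 kept direction and call, and 3 root contrasts passed under an alternative. Absolute depth is unknown, so the precision of the low pollen levels cannot be given. The labels give no replicate numbers to pair libraries within an organ; leaf and root libraries were paired by treatment in the comparison of organs.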
